A study of Mus musculus with 8 samples.

Results

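The Obox genes encode oocyte-specific homeobox proteins, and 5 of them (Obox1, Obox2, Obox3, Obox5 and Obox6) were named by 6 of 45037 probe sets on an array that covers 19324 named genes. The probe sets were found by taking every gene entry of the platform's probe table that begins with Obox. Of these, 5 named 1 gene each (Obox3, Obox5 and Obox6 with 1 probe set each, and Obox2 with 2), while 1 entry named Obox2 and Obox1 together and cannot separate them. Obox4 and Obox7 had no entry of their own. Total RNA was pooled from 20 mouse embryos at the 2-cell stage for each sample, and 4 samples labelled Brg1 mutant were compared with 4 wild type samples on 1 array each. The series title speaks of maternal BRG1, the motor subunit that drives BAF chromatin remodelling complexes. The labels give neither the mutant allele, a Cre driver, the strain nor the ages of the mothers, so the mutants are named here only as labelled. They call the samples biological replicates and say nothing more of separate mothers or collections, so the p-values cover only the spread of these samples, which may be technical. Each value was a MAS5 signal, a linear brightness that summarises the probes of a set.

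Obox proteins are homeodomain transcription factors of the paired-like class, and their homeodomains recognise DNA with a GGATTA core, as those of the related Otx and Crx factors do. In the mouse, Obox1, Obox2, Obox5 and Obox7 transcripts are stored in the oocyte, whereas Obox3 and Obox4 copies are transcribed from the embryo's own genome around the 2-cell stage. Together these factors are known for their part in recruiting RNA polymerase II to genes switched on at zygotic genome activation, the point at which the embryo takes over transcription from the egg's stored RNA. Obox6 is transcribed in oocytes and preimplantation embryos, and mice that lack it alone are viable.

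Most of the family lies in 1 cluster. RefSeq lists 6 protein-coding Obox genes, all on chromosome 7, and 47 pseudogenes named after Obox3 (8), Obox4 (38) or Obox6 (1). Between the first and the last protein-coding member, 47 of 53 annotated genes carry an Obox name. Transcripts of near-identical copies may bind the same probes, and probe sets whose names end in _x_at are those that the manufacturer marks as able to bind several transcripts. All 3 probe sets with Obox2 in their entry are of this kind, so their signals cannot be assigned to Obox2 alone.

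Promoters of 5 Obox genes matched the RefSeq promoter table of GRCm38.p6 (Obox1, Obox2, Obox3, Obox5 and Obox7), and 4 are printed because the results below turn on these genes and their promoters share sequence. Each run is the 250 bases before the annotated start, read 5′ to 3′ along the gene. Capitals mark a run of 25 bases found in all 5 promoter windows, the letters TATATAA and, in Obox3, the letters GGATTA. The stretches are chr7:15639778-15640027 (- strand) for Obox3, chr7:15750120-15750369 (+ strand) for Obox5, chr7:15547007-15547256 (+ strand) for Obox1 and chr7:15388601-15388850 (+ strand) for Obox2.
Obox3: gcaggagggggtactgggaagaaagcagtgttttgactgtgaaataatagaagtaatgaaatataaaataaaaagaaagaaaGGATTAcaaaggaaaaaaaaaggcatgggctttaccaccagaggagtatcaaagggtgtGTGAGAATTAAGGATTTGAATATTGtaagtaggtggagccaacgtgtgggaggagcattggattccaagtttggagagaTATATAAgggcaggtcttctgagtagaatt
Obox5: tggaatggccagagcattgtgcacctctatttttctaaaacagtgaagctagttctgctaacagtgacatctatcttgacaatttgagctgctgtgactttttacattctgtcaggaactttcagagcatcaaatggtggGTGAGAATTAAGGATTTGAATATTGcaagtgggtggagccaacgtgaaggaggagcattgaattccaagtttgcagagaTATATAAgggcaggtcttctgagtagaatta
Obox1: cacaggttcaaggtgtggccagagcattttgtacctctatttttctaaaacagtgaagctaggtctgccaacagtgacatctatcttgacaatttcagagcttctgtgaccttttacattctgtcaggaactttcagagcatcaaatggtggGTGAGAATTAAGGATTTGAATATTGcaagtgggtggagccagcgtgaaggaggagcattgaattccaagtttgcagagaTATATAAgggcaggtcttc
Obox2: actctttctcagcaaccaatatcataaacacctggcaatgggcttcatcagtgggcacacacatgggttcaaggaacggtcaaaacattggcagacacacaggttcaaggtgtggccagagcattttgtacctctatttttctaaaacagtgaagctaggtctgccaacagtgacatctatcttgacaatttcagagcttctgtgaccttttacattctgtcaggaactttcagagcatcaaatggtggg

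The run of 25 bases begins 109 bases before the start in Obox3, 110 in Obox5 and 98 in Obox1. In Obox2 it begins 1 base before the annotated start, so the stretch printed for that gene holds none of it in full. Obox1 and Obox2 were identical over 203 aligned bases of their 300-base windows (250 before to 50 after the start), and Obox1 and Obox5 shared 95.8% of 285 aligned bases. Obox3 shared 93.3% of 164 aligned bases with Obox1 and 92.6% of 175 with Obox5, so a shorter stretch of its window aligned. GGATTA, on either strand, occurred in the 250 bases before the start of Obox3, beginning at base -168, and in none of those of Obox1, Obox2, Obox5 or Obox7. It occurred in 6.25% of 32851 promoters of the same length. In the printed stretches TATATAA, searched on both strands, began at -30 in Obox3, -31 in Obox5 and -19 in Obox1, against 3.04% of all promoters with a match. The 2 motifs do not overlap in these stretches, and a match is a description of letters.

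The targeted gene was checked first. On the brighter Smarca4 (BRG1) probe set, the mutant samples read 387.5, 200.9, 273 and 291.3 and the wild type samples 796, 632.1, 612.1 and 660.6, with no overlap (2.39-fold lower in the mutants, limma adjusted p = 0.0211). This call was lost without any 1 of the wild type samples or without mutant replicate 3 or 4 (limma adjusted p = 0.0526 to 0.0834). The other Smarca4 probe set read 277 ± 127 in mutant and 253 ± 44.9 in wild type samples (SD, n = 4 each), which did not pass the test (limma adjusted p = 0.963). Which exons either probe set reads was not given in the sources used here. Of stage markers, the early 2-cell transcript Zfp352 read between 1408.1 and 9790.2 over the 8 samples, and the stored egg transcript Dppa3 between 4709 and 11204. Signal of 20 tested granulosa and cumulus markers summed to 29175 to 35736 in mutant replicates 3 and 4, 2580 to 4045 in mutant replicates 1 and 2, and 3691 to 4542 in wild type. Among them Hsd3b1, a steroidogenic enzyme gene, read 8835.3 and 6889 in mutant replicates 3 and 4, while no other sample exceeded 50.5. The mesenchymal filament gene Vim read 4526.1 and 3107.2 there on its brightest probe set, while no other sample exceeded 31.1. Bright members such as these, Gja1 (5782.7 and 4189.1) and Fdx1 (5390.7 and 4239.6) weigh most in the sum, and the list was split. In the same 2 replicates Cyp11a1 read 30.1 and 39.4, within the wild type range of 25.8 to 59.7. Amhr2 read 1358.5 and 1451.3, within the wild type range of 1353.5 to 2017.8. Of the 20 granulosa and cumulus markers 1 was called higher by limma, Kitl, where 3.01% of 11934 tested genes were called higher. Hsd3b1 and Vim did not pass (limma adjusted p = 0.0961 and 0.0936), with the 2 mutant pairs far apart. Where 7.04% of tested genes were called in either direction, none of the 6 oviduct, 6 sperm and 5 blood markers tested was called. Their sums were 1045 to 1102, 810 to 839 and 799 to 854 in mutant replicates 3 and 4. They were 1018 to 1145, 1323 to 1816 and 445 to 493 in mutant replicates 1 and 2, and 938 to 1043, 1699 to 1986 and 332 to 433 in wild type samples. Mean signal of bacterial and phage spike-in controls was 4.81 and 3.37 times the wild type mean in mutant replicates 1 and 2, and 1.24 and 0.713 times in replicates 3 and 4. The ratio of 3 prime to 5 prime actin signal ran from 4.88 to 15.05 in mutant and from 16.3 to 21.1 in wild type samples. Each Obox value below is also given with mutant replicates 1 and 2 and mutant replicates 3 and 4 set apart. Their part in the results was not tested.

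Across the array, limma with Benjamini-Hochberg adjustment over 22518 tested probe sets called 6.56% of them at an adjusted p under 0.05, 2.98% higher and 3.58% lower in the mutants. All 6 Obox probe sets were bright enough to be tested, and each stood above the background bound (the 95th percentile of 27 bacterial control probe sets) on all 8 arrays. The test called 2 of the 6. Obox3 fell in Brg1 mutant embryos and 1 Obox2 probe set rose. The groups did not overlap for these 2 probe sets, where they did not overlap for 17.5% of all tested probe sets, 7.83% higher and 9.67% lower in the mutants. The median log2 change of the 22518 was -0.05.

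**Figure D1:**
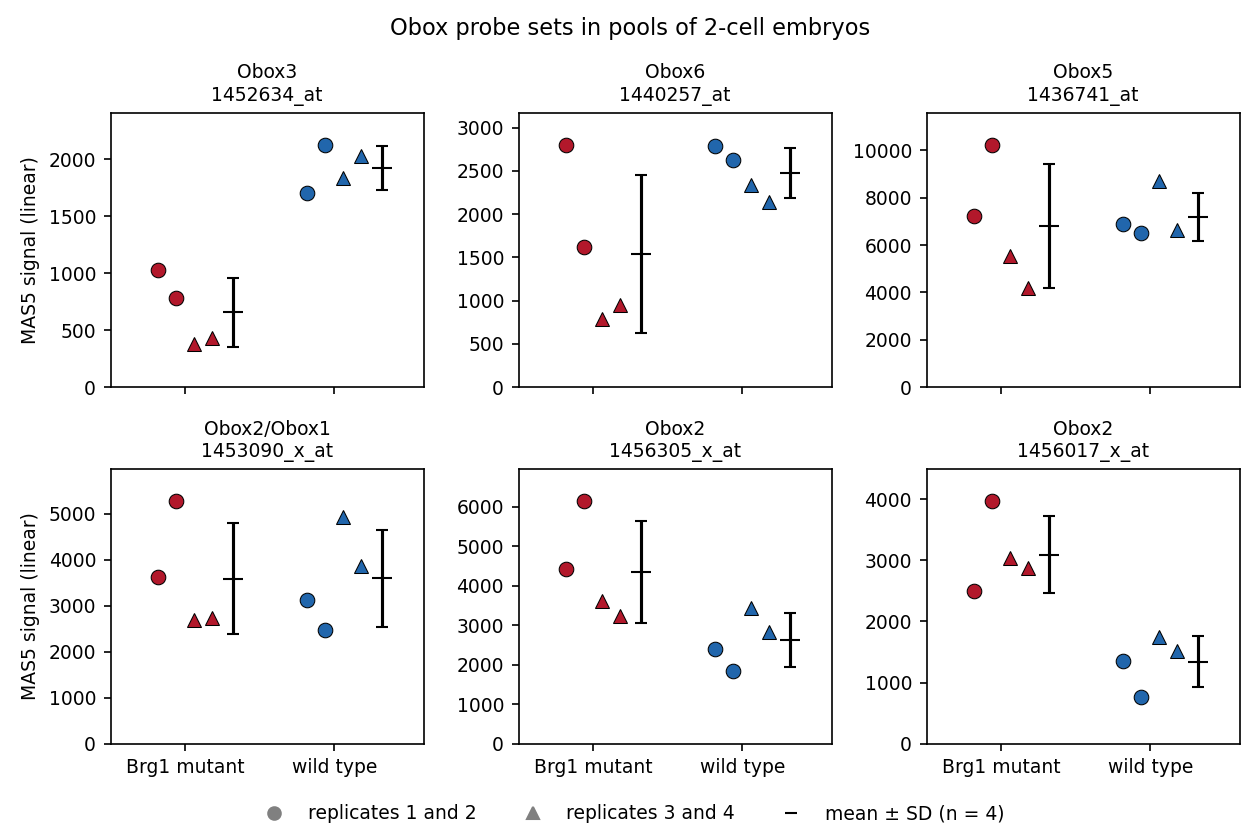
MAS5 signal (linear axis from 0) of the 6 Obox probe sets in each pool of 20 embryos, Brg1 mutant on the left and wild type on the right; circles are replicates 1 and 2, triangles replicates 3 and 4, and the bars show mean ± SD of 4. All 4 mutant points lie below the wild type points for Obox3 and above them for Obox2 on 1456017_x_at, while the other 4 panels overlap.

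Obox3, which the embryo itself transcribes at this stage, was the 1 Obox probe set that fell. Its probe set (1452634_at) read 1025.4, 783, 382.2 and 429.4 in the mutant samples, against 1700.5, 2127.5, 1833.1 and 2024 in the wild type samples. Every mutant sample was below every wild type sample, and mutant replicates 3 and 4 were the lowest. The mean signal was 655 ± 305 in mutant and 1921 ± 191 in wild type embryos (SD, n = 4 each), 3.18-fold lower in the mutants. The log2 change was -1.67 with an SE of 0.32, and it passed the test (limma adjusted p = 0.0206). Wild type samples were close to one another, with a coefficient of variation of 9.95%, against 46.5% in the mutants. In pooled embryos, fewer embryos with the transcript and less transcript per embryo cannot be told apart. With mutant replicates 1 and 2 alone, Obox3 was still called (log2 change -1.10, limma adjusted p = 0.0217), in a fit that called 6.71% of all tested probe sets and 3.11% as lower. With mutant replicates 3 and 4 alone the log2 change reached -2.24 (limma adjusted p = 2.72e-05), in a fit that called 23.2% of all tested probe sets as lower. The call was lost in 6 of 8 fits that left out 1 sample. Leaving out wild type replicate 1, 2, 3 or 4 gave limma adjusted p = 0.0660, 0.0574, 0.0631 or 0.0681, and leaving out mutant replicate 3 or 4 gave 0.0525 or 0.0565.

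Of the probe sets that carry Obox2, a gene whose transcript the oocyte stores, 1 rose. Probe set 1456017_x_at read 2492.2, 3972.6, 3031.5 and 2868.8 in the mutant samples, against 1353.2, 764.8, 1744.2 and 1513.1 in the wild type samples. All 4 mutant samples were above all wild type samples, and both pairs of mutant replicates lay in the same range. The mean was 3091 ± 629 in mutant and 1344 ± 418 in wild type embryos (SD, n = 4 each), 2.37-fold higher in the mutants (log2 change 1.24, SE 0.29, limma adjusted p = 0.0358). The log2 change was 1.29 with mutant replicates 1 and 2 alone and 1.20 with replicates 3 and 4 alone, and the first of these missed the threshold (limma adjusted p = 0.0519 and 0.0105). Across these 2 fits, 3.6% and 18.3% of tested probe sets were called higher. Leaving out 1 sample ended the call in 6 of 8 fits, those without wild type replicate 1, 2, 3 or 4 (limma adjusted p = 0.0994, 0.0740, 0.0670 and 0.0851) or mutant replicate 3 or 4 (limma adjusted p = 0.0811 and 0.0750). It was also lost with each array centred on its median or on its 75th percentile and without the filter on dim probe sets (limma adjusted p = 0.0735, 0.0711 and 0.0557).

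The second Obox2 probe set leaned the same way and did not pass. Probe set 1456305_x_at read 4420.5, 6140.5, 3618.9 and 3230.4 in mutant samples, against 2387, 1826.9, 3435.3 and 2819.8 in wild type samples. The groups overlapped through mutant replicate 4, which lay under wild type replicate 3. The log2 change was 0.73 (95% interval 0.09 to 1.37, limma adjusted p = 0.146), with 1.03 from mutant replicates 1 and 2 alone and 0.42 from replicates 3 and 4 alone (limma adjusted p = 0.0504 and 0.177).

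The probe set shared by Obox2 and Obox1 showed no such lean. Probe set 1453090_x_at read 3630.9, 5271.5, 2686.3 and 2736.8 in mutant samples, against 3112.1, 2470.4, 4926.7 and 3853.6 in wild type samples. Its groups overlapped over most of their range, with a log2 change of -0.01 (95% interval -0.69 to 0.66, limma adjusted p = 0.985). The interval leaves room for changes of either sign. The estimate was 0.33 from mutant replicates 1 and 2 alone and -0.36 from replicates 3 and 4 alone (limma adjusted p = 0.498 and 0.274). In the wild type samples, all 3 probe sets with Obox2 in their entry ranked replicate 3 highest, then 4, 1 and 2, and their coefficients of variation there were 26.0% to 31.1%.

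Obox5, another stored maternal transcript, did not pass either. Its probe set (1436741_at) read 7213.1, 10245.2, 5553.6 and 4188.3 in mutant samples, against 6883.9, 6509.5, 8711 and 6650.5 in wild type samples. Mutant replicate 2 was above and mutant replicates 3 and 4 were below all wild type samples, so the mutants spread to both sides. The log2 change was -0.15 (95% interval -0.81 to 0.52, limma adjusted p = 0.804). Mutant replicates 1 and 2 alone gave 0.27 and replicates 3 and 4 alone -0.57 (limma adjusted p = 0.436 and 0.0286), so the sign depended on which pair was used, and the second estimate came from the fit that called 41.6% of all tested probe sets.

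Obox6 stood between these. Its probe set (1440257_at) read 2805.3, 1623.9, 793.3 and 951.3 in mutant samples, against 2790, 2629.6, 2339.3 and 2140.1 in wild type samples. Mutant replicates 2, 3 and 4 were below all wild type samples, whereas mutant replicate 1 was above them. Its mean was 1543 ± 915 in mutant and 2475 ± 291 in wild type embryos (SD, n = 4 each), and the difference did not pass (log2 change -0.85, SE 0.37, limma adjusted p = 0.179). Mutant replicates 1 and 2 alone gave -0.21 and replicates 3 and 4 alone -1.50 (limma adjusted p = 0.643 and 2.16e-04). The second estimate came from the fit that called 23.2% of all tested probe sets as lower. Without mutant replicate 1 alone Obox6 passed (log2 change -1.20, limma adjusted p = 0.0296), in a fit that called 2709 of 22518 tested probe sets.

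**Figure D2:**
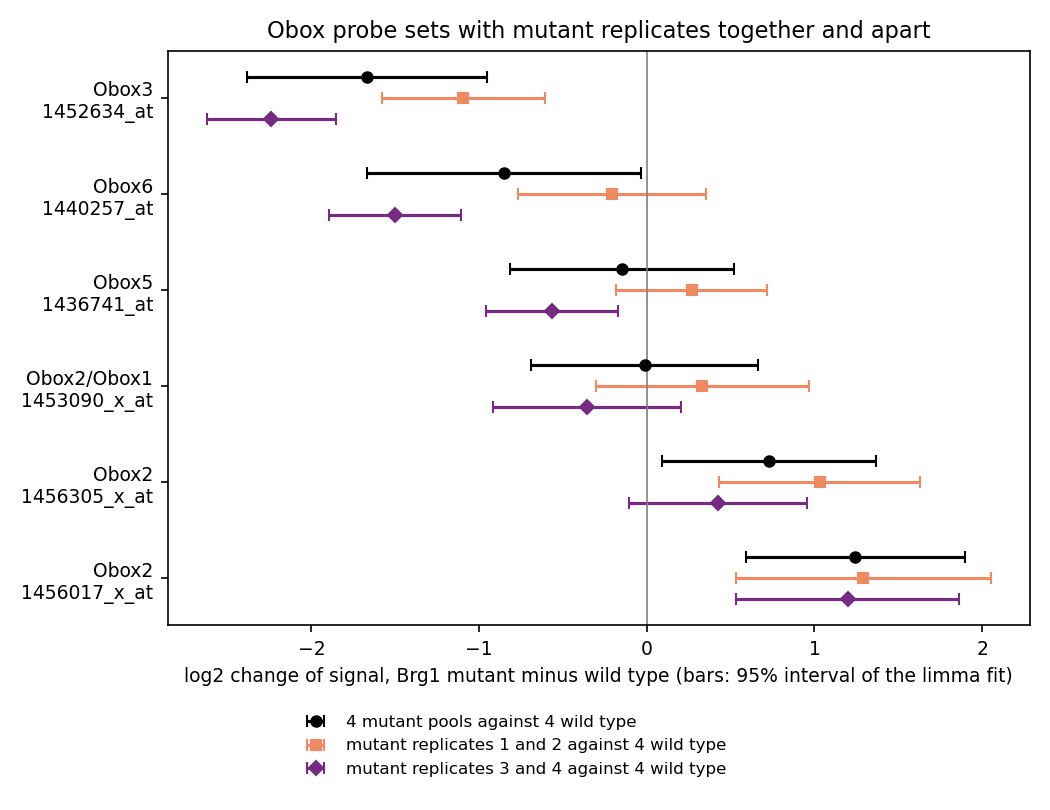
Log2 change of signal, Brg1 mutant minus wild type, for the 6 Obox probe sets with the 95% interval of the limma fit; circles use all 4 mutant samples, squares mutant replicates 1 and 2, and diamonds mutant replicates 3 and 4, each against the same 4 wild type samples. The 3 estimates of Obox3 all lie left of 0 and those of Obox2 on 1456017_x_at all lie right of it, while Obox5 and the Obox2 and Obox1 set change side.

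The fits with mutant replicates 1 and 2 and with mutant replicates 3 and 4 share their 4 wild type samples. For all 6 probe sets the estimate from replicates 3 and 4 was the lower one. The median log2 change of all tested probe sets moved the same way, from 0.05 with replicates 1 and 2 to -0.20 with replicates 3 and 4. The exception in size was the Obox2 probe set 1456017_x_at, where they lay 1.20 and 1.29 above wild type on the log2 scale.

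Ratios taken within an array are free of any constant factor between arrays. They were taken here without quantile normalization, which can change them. Of the 15 pairs of Obox probe sets, 11 had ratios that did not overlap between the groups. Over all pairs of tested probe sets, 17.6% did not overlap. The 15 pairs were built from 6 probe sets and are not independent of one another. Pairs that held Obox3 or 1456017_x_at, the 2 called probe sets, largely restate those calls. The rest of the 11 all held 1456305_x_at. The log2 ratio of Obox3 to Obox2 (1456017_x_at) was -1.28, -2.34, -2.99 and -2.74 in mutant samples, against 0.33, 1.48, 0.07 and 0.42 in wild type samples. This pair joins the probe set called lower with the one called higher, so its separation follows from those calls. The ratio compares different probes and its zero carries no meaning of its own. The difference of the means was -2.91 (-2.34 ± 0.75 in mutant and 0.57 ± 0.62 in wild type, SD, n = 4 each).

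Obox3 was also lower relative to Obox6, which had itself not passed. The log2 ratio of Obox6 to Obox3 was 1.45, 1.05, 1.05 and 1.15 in mutant samples, against 0.71, 0.31, 0.35 and 0.08 in wild type samples. The 4 mutant ratios were above all wild type ratios, in both pairs of mutant replicates. The ratio of Obox5 to Obox3 ran from 2.81 to 3.86 in mutant and from 1.61 to 2.25 in wild type samples.

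The probe sets of Obox2 and Obox1 differed among themselves. The log2 ratio of the shared set 1453090_x_at to the Obox2 set 1456305_x_at was -0.28, -0.22, -0.43 and -0.24 in mutant samples, against 0.38, 0.44, 0.52 and 0.45 in wild type samples. Within each group this ratio spread by an SD of 0.09 in mutant and 0.06 in wild type samples, the narrowest of the 15, and the group means lay 0.74 apart. These 2 probe sets, which share a gene in their entries, therefore changed unequally on every mutant array. The probe set table does not tell which copy each of them binds. By contrast, the ratio of Obox5 to the shared Obox2 and Obox1 set overlapped, at 0.90 ± 0.20 in mutant and 1.04 ± 0.29 in wild type samples (SD, n = 4 each).

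**Figure D3:**
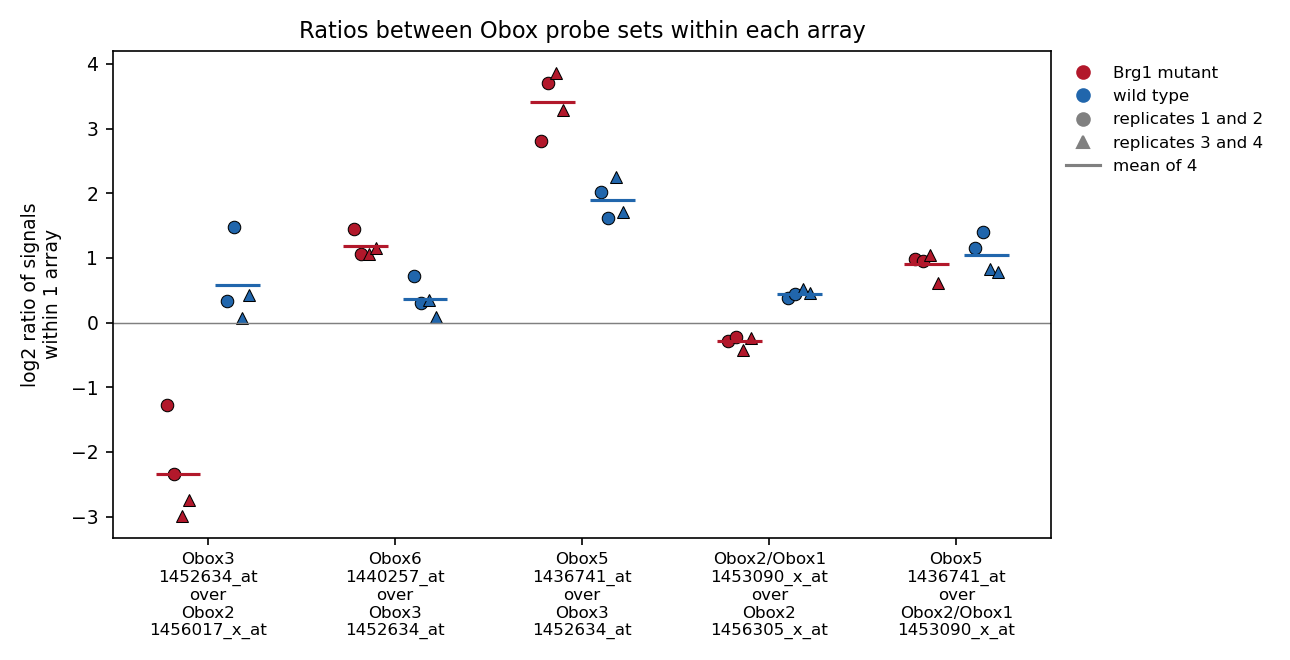
Log2 ratio of 2 Obox probe set signals within each array for 5 of the 15 pairs, with Brg1 mutant in red left of wild type in blue; circles are replicates 1 and 2, triangles replicates 3 and 4, and lines the means of 4. The groups are apart for the first 4 pairs and overlap for the last, Obox5 over the shared Obox2 and Obox1 set.

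Genes with the pattern closest to each Obox probe set were found by the root mean square difference of log2 signals over the 8 arrays, each gene centred on its own mean. Closest to Obox3 were Sult2b1, a sterol sulfotransferase gene (0.10), Cdc6, which loads the replicative helicase (0.12), and Utp14b, a ribosomal RNA processing gene (0.14). These genes were chosen for their likeness over the same arrays, so their own changes are not given as a test. Closest to the Obox2 set 1456017_x_at were Nlrp5, a gene of the subcortical maternal complex (0.16), the F-box gene Fbxw24 (0.16) and Commd3 (0.17). Closest to Obox6 were Topors, Alox12 and the cyclin E gene Ccne1 (0.11 to 0.13). The nearest genes to Obox5 were Rps27l, Slk and the homeobox gene Rhox5, those nearest to the shared Obox2 and Obox1 set were Eif4e, 1810013L24Rik and Ywhaz, and those nearest to 1456305_x_at were Swi5, Nr3c1 and Trmt10b (0.08 to 0.11).

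Among the Obox probe sets themselves, Obox5 and the shared Obox2 and Obox1 set were the closest pair at 0.22, and Obox3 and the Obox2 set 1456017_x_at the farthest at 1.57. Obox6 was nearer to Obox3 (0.45) than to any probe set of Obox2 (0.67 to 1.25).

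Other homeobox genes of the oocyte and early embryo were mostly not called. Of 46 listed, 24 were tested with 1 probe set each, and 1 fell, 0 rose and 23 did not pass, where 7.04% of 11934 tested genes were called, 3.01% higher and 4.03% lower. The 1 that fell was Hesx1, a paired-like repressor, at 41.8, 54.4, 56.6 and 31.8 in mutant samples, against 215.6, 172.8, 80.3 and 142.7 in wild type samples. It was 3.20-fold lower in the mutants with no overlap (log2 change -1.68, SE 0.36, limma adjusted p = 0.0263), and it was called with either pair of mutant replicates alone (limma adjusted p = 0.0417 and 0.00788). It was lost without wild type replicate 1, 2 or 4 and without mutant replicate 3 or 4 (limma adjusted p = 0.0521 to 0.0920). Zhx1, Zfhx3 and Pbx3 missed the threshold at 1.02, -0.80 and 0.79 on the log2 scale (limma adjusted p = 0.102, 0.105 and 0.157). Further probe sets of Zfhx3 (-0.19 and -0.78) and Pbx3 (0.26) did not pass either (limma adjusted p = 0.712, 0.287 and 0.612). The median log2 change of the list was 0.05, against -0.05 for all tested genes. In the fit with mutant replicates 1 and 2 alone, which called 6.71% of all tested probe sets, 2 rose and 1 fell. In the fit with replicates 3 and 4 alone 3 rose and 8 fell of the 24, a share near the 41.6% of all tested probe sets called there.

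A list of early 2-cell transcripts, from the stage at which Obox3 is transcribed, gave no call over all samples with 1 probe set per gene. Of 37 listed, 13 were tested, 10 had only probe sets shared with other genes and 14 had no entry. None of the 13 passed limma with all 8 samples, where 7.04% of 11934 tested genes were called. Of the 13, 6 had an unadjusted limma p under 0.05, as had 5748 of all 22518 tested probe sets. The smallest adjusted values belonged to Ddit4l, Spz1, Dppa2 and Dppa4, with log2 changes of -0.94, -1.52, -0.75 and -0.70 (limma adjusted p = 0.118, 0.139, 0.163 and 0.174). A second Dppa2 probe set did fall (log2 change -1.44, limma adjusted p = 0.0254), while the 2 further Ddit4l probe sets did not pass (log2 changes -0.72 and -0.60, limma adjusted p = 0.269 and 0.175). The median of the list was -0.51 over all samples, 0.11 with mutant replicates 1 and 2 alone and -1.03 with replicates 3 and 4 alone. With mutant replicates 1 and 2 alone 2 rose and 0 fell, where that fit called 6.71% of all tested probe sets. With replicates 3 and 4 alone 0 rose and 10 fell, where that fit called 41.6% of them and 23.2% as lower. Zfp352 showed both calls: it read 6477 and 9790.2 in mutant replicates 1 and 2, 1408.1 and 1691 in mutant replicates 3 and 4, and 2314.7 to 4236.3 in wild type samples. Ddit4l, Spz1, Dppa2 and Dppa4 had negative log2 changes with either pair of mutant replicates, as Obox3 did. These 4 were picked by their adjusted p on the same arrays, so the shared sign is no test, and the list as a whole did not share it. With replicates 1 and 2 alone theirs were -0.36, -0.38, -0.64 and -0.56, and none passed (limma adjusted p = 0.296 to 0.570).

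Stored oocyte transcripts gave 3 rises and 1 fall among 26 tested of 33 listed, with 22 that did not pass, where 7.04% of tested genes were called, 3.01% higher and 4.03% lower. Zar1, a maternal regulator of stored mRNA, read 2066.4, 2819.5, 2438.6 and 2482.8 in mutant samples, against 337, 410.7, 360 and 337.7 in wild type samples, 6.77-fold higher in the mutants (limma adjusted p = 6.74e-04). The linker histone gene H1f8 was 5.77-fold and the growth factor gene Gdf9 2.40-fold higher in the mutants (limma adjusted p = 0.00771 and 0.0343), and Gtsf1, a piRNA pathway gene, was 3.02-fold lower (limma adjusted p = 0.0418). Zar1 and H1f8 were called whichever 1 sample was left out. Gdf9 was lost without wild type replicate 1, 2, 3 or 4 or mutant replicate 3 or 4, and Gtsf1 without any 1 sample other than mutant replicate 2. Without mutant replicates 3 and 4 together, Gtsf1 was not called (limma adjusted p = 0.116), and its other probe set did not pass (log2 change -0.75, limma adjusted p = 0.0934). The list's median was 0.33, against 0.68 with mutant replicates 1 and 2 alone and -0.19 with replicates 3 and 4 alone. Mutant samples were above all wild type samples for Zar1, H1f8 and Gdf9, as they were for Obox2 on 1456017_x_at. These 3 genes were picked by their calls on the same arrays, so the likeness is no test. Of all tested probe sets, 7.83% had every mutant sample above every wild type sample.

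**Figure D4:**
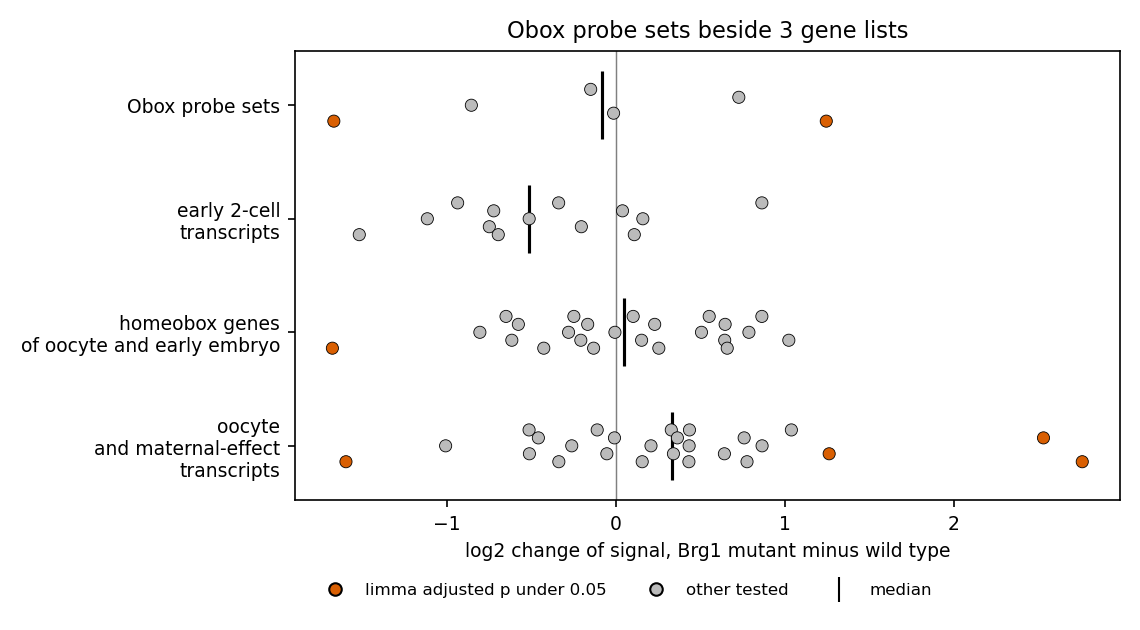
Log2 change of signal, Brg1 mutant minus wild type, for the 6 Obox probe sets and the tested members of 3 gene lists, 1 probe set per gene; filled orange points passed limma at an adjusted p under 0.05, grey points did not, and vertical bars are medians. Obox3 and Hesx1 lie at -1.67 and -1.68, Hesx1 from a far dimmer signal, and the called rises are Obox2, Zar1, H1f8 and Gdf9.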

How the data were processed

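Each deposited value was an array intensity, a linear MAS5 signal for each probe set, per the submitters' processing notes (MAS5 version not given in the sources used here). As the values show, the authors had scaled all 8 arrays to a trimmed mean of 150, and no pair of arrays was identical. Here signals below a floor of 1 were raised to it before taking log2. Control probe sets (64) were left out, and 22518 probe sets, the brighter 50% by their mean over the 8 samples, entered limma 3.58.1 in R 4.3.3, with lmFit, eBayes and a trend on intensity. Tests were two-sided, with Benjamini-Hochberg adjustment over all of these and a threshold of 0.05. The number of arrays limits the precision. The fit was tested on simulated data. Gene names came from the platform annotation, and sequences from RefSeq (GRCm38.p6), aligned locally with Biopython 1.88.

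Genes were named by a rule: every Obox probe set, Smarca4, the 3 closest patterns to each Obox probe set, the 4 top-ranked members by adjusted p of the early 2-cell, homeobox and oocyte lists, and Hsd3b1 and Vim. Zfp352, Dppa3, Kitl, Cyp11a1, Amhr2, Gja1, Fdx1 and further probe sets of Dppa2, Ddit4l, Gtsf1, Zfhx3 and Pbx3 were added after their values were seen. The family, the lists and the rule were chosen with earlier results of these data known. Alternatives were other scalings and filters, a pseudocount of 16, no trend, weighted arrays, a block for the replicate number, and samples left out singly or as the mutant pairs.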

Additional observations from a re-analysis of the deposited data

How the results depend on the processing

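With 2 Obox probe sets called by limma, the count stayed at 2 with quantile normalization, the upper 30% filter, a pseudocount of 16 and no intensity trend. It was 1 with median or 75th percentile centring, 1 without a filter, 4 with array weights, and 0 to 3 with 1 sample left out. It was 1 when mutant replicates 3 and 4 were dropped, and 4 when mutant replicates 1 and 2 were dropped. Array weights called 11486 of all tested probe sets, 9358 were called without mutant replicates 1 and 2, and 73 to 2926 with 1 sample left out. The cause of these differences was not tested. Calls split into 671 higher and 807 lower, into 421 and 1557 with median centring, 496 and 1104 with 75th percentile centring, 490 and 795 with quantile normalization, and 642 and 589 without a filter. Median and 75th percentile centring and quantile normalization put the median log2 change of all tested probe sets at -0.22, -0.19 and -0.14.

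Samples that share a number did not deviate together (r = 0.02, -0.18, -0.13 and -0.09 for numbers 1 to 4, and only number 1 correlated best with its own). With the replicate number as a block, limma called 15 probe sets and 0 of the Obox family. Obox3 stayed at -1.67 (limma adjusted p = 0.0711) and Obox2 on 1456017_x_at at 1.24 (limma adjusted p = 0.114). The brighter Smarca4 probe set was lost too (limma adjusted p = 0.0693). Under this block 0 homeobox genes and 1 oocyte gene were called.

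Obox3 ran from -1.92 to -1.45 with 1 sample left out. Obox2 on 1456017_x_at ran from 0.99 to 1.39, and missed the threshold at 1.07 with median centring, 1.10 with 75th percentile centring, 1.24 without a filter and 1.29 without mutant replicates 3 and 4. Obox6 ran from -1.20 to -0.59, and passed at -1.37 with array weights and at -1.50 without mutant replicates 1 and 2. Obox5 ran from -0.37 to 0.06, turned positive at 0.058 without mutant replicate 4 and at 0.27 without mutant replicates 3 and 4, reached -0.58 with quantile normalization without passing (limma adjusted p = 0.0538), and passed at -0.49 with array weights and at -0.57 without mutant replicates 1 and 2. The shared Obox2 and Obox1 set ran from -0.22 to 0.15. It was positive without wild type replicate 3 (0.15) or 4 (0.04), without mutant replicate 3 (0.11) or 4 (0.10), and without both (0.33).

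Of all 22518 tested probe sets, 73 to 2926 were called with 1 sample left out and 11486 with array weights. When mutant replicates 3 and 4 were dropped 1511 were called, and 9358 when replicates 1 and 2 were. Of the early 2-cell list, 0 to 2 were called with 1 sample left out and 11 with array weights. When mutant replicates 3 and 4 were dropped 2 were called, and 10 when replicates 1 and 2 were. The homeobox counts were 0 to 3, 12, 3 and 11 in the same order, and 0 with the upper 30% filter. The oocyte counts were 2 to 5, 16, 9 and 10, and 2 without a filter. All 9 without mutant replicates 3 and 4 were rises, in a fit that called 3.6% of all tested probe sets higher. The 10 without replicates 1 and 2 were 5 rises and 5 falls, in a fit that called 41.6% in either direction. The second Smarca4 probe set turned negative with quantile normalization (-0.017), median centring (-0.14), 75th percentile centring (-0.11) and array weights (-0.0044), and without wild type replicate 2 (-0.09) or mutant replicate 1 (-0.23), within a range of -0.23 to 0.31 over samples left out.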
